A study of Mus musculus with 8 samples.

Results

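Endothelial identity genes encode the adhesion proteins, growth factor receptors and surface glycoproteins by which blood vessel lining cells are recognised. The 10 genes taken by name were Pecam1, Cdh5, Esam, Cldn5, Kdr, Tek, Tie1, Eng, Vwf and Emcn, out of 37979 listed genes, and the rule that takes them uses no measured value. Their RNA was measured in pericytes and smooth muscle cells (SMCs) sorted from mouse hindlimb muscle, the mural cell types of the vessel wall, with 4 libraries of each. All mice were Ai14+/-;SM22α-Cre+, of both sexes and 3 to 4 months old, with 18 mice in the study as a whole. In these mice, Cre driven by the SM22α promoter switches on tdTomato for good in cells that have used it. Pericytes were the DAPI-low, FITC-, PDGFRβ+ and tdTomato- cells, and SMCs were the DAPI-low, FITC-, PDGFRβ+ and tdTomato+ cells, where FITC marked both CD31 (the product of Pecam1) and CD45. The gate therefore kept cells without FITC signal for CD31 or CD45, although the legend of the gating scheme writes both populations as CD31+. The muscle was digested with collagenase and trypsin before staining, and absence of the proteins from the sorted cells was not tested here. Each library held about 60000 cells combined from multiple sorts, the animals behind each library were not named, and all 8 carried the same batch label. The paper proposes that individual differences and batch effects of the combined sorts may lie behind variation among replicates, which was not tested here.

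Endothelial cells line every blood vessel and are held together by VE-cadherin, claudins and immunoglobulin-like adhesion proteins. They receive vascular endothelial growth factor (VEGF), angiopoietin and bone morphogenetic protein signals through receptors that few other cells carry at high levels. In muscle they form dense capillary tubes that share a basement membrane with pericytes, while SMCs wrap arterioles and venules. In bulk RNA, the number of cells of one type and the RNA per cell cannot be told apart.

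Promoters are shown first, because the 10 genes are compared below as a group and ETS factors are the transcription factors best known at endothelial promoters. RefSeq windows (GRCm38.p6) of 250 bases before the gene start were at hand for 6 of the 10 genes: Kdr, Tek, Tie1, Eng, Emcn and Cldn5. The core motif searched was AGGAAG on either strand, which reads CTTCCT on the other strand. It occurred in 3 of the 6 windows, and 29.2% of 27025 windows of this length held it. The windows with a match are Emcn (chr3:137340828-137341077, plus strand), Eng (chr2:32646345-32646594, plus strand) and Tie1 (chr4:118489850-118490099, minus strand), each written 5′ to 3′ along the gene with the motif in capitals.
Emcn: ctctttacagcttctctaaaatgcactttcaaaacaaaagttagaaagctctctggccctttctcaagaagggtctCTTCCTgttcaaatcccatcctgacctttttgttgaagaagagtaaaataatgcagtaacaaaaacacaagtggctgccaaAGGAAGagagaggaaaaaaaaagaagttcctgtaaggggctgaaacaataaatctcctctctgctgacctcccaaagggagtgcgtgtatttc
Eng: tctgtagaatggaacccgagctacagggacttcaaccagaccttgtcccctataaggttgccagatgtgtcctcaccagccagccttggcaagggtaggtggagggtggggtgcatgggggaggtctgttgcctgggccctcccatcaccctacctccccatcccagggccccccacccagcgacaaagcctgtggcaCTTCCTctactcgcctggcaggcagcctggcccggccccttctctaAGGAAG
Tie1: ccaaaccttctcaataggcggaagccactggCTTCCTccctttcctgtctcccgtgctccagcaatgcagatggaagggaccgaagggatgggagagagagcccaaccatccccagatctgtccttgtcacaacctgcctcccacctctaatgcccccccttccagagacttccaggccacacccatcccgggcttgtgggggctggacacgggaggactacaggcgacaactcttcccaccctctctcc
Emcn and Eng each held the motif once in both orientations, and Tie1 held it once. A SOX core, ACAAT on either strand, occurred in 2 of the 6 windows (Emcn and Tek), against 28.3% of all windows. The GATA motif AGATAA occurred in 0 of the 6 windows on either strand, against 10.3% of all windows. A match is a description of letters in the window and names no binding site.

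All 10 genes were at or above 1 FPKM, a read count scaled for transcript length and for the size of the library, in every pericyte and every SMC library. They were higher in SMCs. The mean FPKM of SMCs was 4.34 to 10.1 times that of pericytes, with a median of 7.45 over the 10 genes. By limma on log2(FPKM + 1), 8 of the 10 were higher in SMCs at an adjusted p (q) below 0.05, while 11.2% of the 27414 genes tested were higher in SMCs. Kdr and Tie1 did not pass. Higher in pericytes by limma at q below 0.05 were 0 of the 10, against 10.6% of genes tested. At an unadjusted p below 0.05 it was also 0 of the 10, with no share over all genes given at that threshold. The median log2 fold change of the 10 genes was 2.58, with a range from 1.93 to 3.22, and that of all genes tested was -0.02. With a log2 fold change above 2 also required, 7 genes passed in SMCs, against 2.66% of genes tested, and 0 passed in pericytes, against 3.24%. In 9 of the 10 genes every SMC library lay above every pericyte library, as in 12.5% of genes tested, and the 2-sided exact permutation p of each was 0.0286, the smallest that 4 against 4 libraries allow. Without SMC replicates 3 and 4, the highest libraries, 4 genes (Tek, Vwf, Emcn and Esam) passed, and without SMC replicates 1 and 2 all 10 passed. Of all genes tested, 2271 of 27124 and 2642 of 26531 were higher in SMCs in these settings, in that order. Leaving out pericyte replicate 3 alone left 5 of the 10 genes past the test, and 2407 of all 27193 tested. Leaving out SMC replicate 3 alone left 4 genes past the fold rule.

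**Figure D1:**
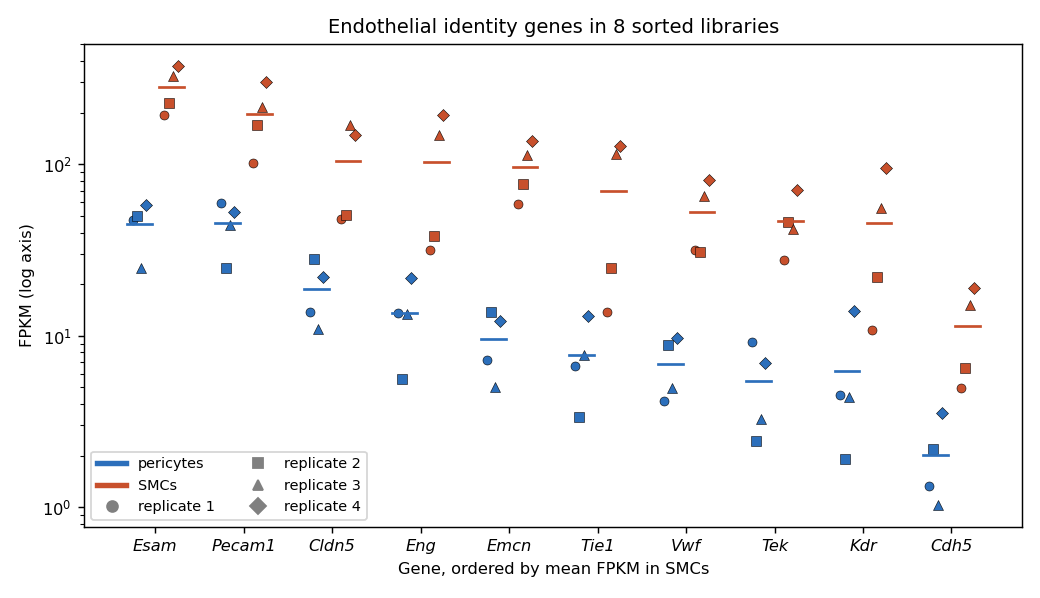
FPKM of the 10 endothelial identity genes on a log axis, with 1 point for each pericyte or SMC library and a bar at each group mean (n = 4). SMC points lie above all pericyte points in 9 genes, and in Kdr the lowest SMC point (10.7 FPKM) lies below the highest pericyte point (14.0 FPKM).

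Of the adhesion and junction proteins, Pecam1 encodes CD31, an immunoglobulin-like protein of endothelial cell borders, platelets and some leukocytes, and the protein the sort selected against. The gene lies on chromosome 11 (106515531 to 106611942, minus strand, NCBI Build 37) with 17 exon blocks. Pecam1 had 59.7, 25.0, 44.5 and 52.7 FPKM in pericyte replicates 1 to 4 and 101.8, 170.3, 215.9 and 301.1 FPKM in SMC replicates 1 to 4. Its RNA was thus present in all libraries of the CD31- gate, and the lowest SMC library was 1.70 times the highest pericyte library. The means were 45.5 ± 15.0 FPKM in pericytes and 197 ± 83.6 FPKM in SMCs (SD, n = 4 each). On the log2(FPKM + 1) scale the difference was 2.06 (SE 0.39, 95% interval 1.14 to 2.97, limma q = 0.00873), and without SMC replicates 3 and 4 it was 1.58 (q = 0.0624).

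Cdh5 encodes VE-cadherin, the cadherin of endothelial adherens junctions (chromosome 8, 106625525 to 106668402, plus strand, 12 exon blocks). Cdh5 had 1.33, 2.18, 1.03 and 3.55 FPKM in pericytes and 4.94, 6.50, 15.0 and 18.99 FPKM in SMCs. It was the lowest of the 10 genes in both groups, and its groups did not overlap. It differed by 1.93 on the log2 scale (SE 0.45, limma q = 0.0213). The call was lost without pericyte replicate 1 (q = 0.0567), pericyte replicate 3 (q = 0.0588) or SMC replicate 3 (q = 0.0583).

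Esam encodes an adhesion molecule of endothelial tight junctions that platelets carry too (chromosome 9, 37335663 to 37345904, plus strand, 10 exon blocks). Esam had 47.2, 50.2, 24.9 and 57.7 FPKM in pericytes and 194.6, 228.2, 326.6 and 374.4 FPKM in SMCs. The groups were far apart, with the lowest SMC library at 3.37 times the highest pericyte library. For Esam the log2 difference was 2.63 (SE 0.31, 95% interval 1.89 to 3.37, limma q = 0.00115).

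Cldn5 encodes claudin-5, the main claudin of endothelial tight junctions, in a single exon (chromosome 16, 18776940 to 18778353, plus strand). Cldn5 had 13.7, 27.9, 11.0 and 21.9 FPKM in pericytes and 47.7, 50.9, 168.6 and 148.6 FPKM in SMCs. SMC replicates 3 and 4 had about the same level and stood well above replicates 1 and 2. The log2 difference was 2.27 (SE 0.51, limma q = 0.0184), and without pericyte replicate 3 the q was 0.0509.

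Among the receptors, Kdr encodes VEGF receptor 2, the main VEGF receptor of endothelial cells (chromosome 5, 76328852 to 76374483, minus strand, 29 exon blocks). Kdr had 4.54, 1.91, 4.42 and 14.0 FPKM in pericytes and 10.7, 21.9, 55.7 and 94.7 FPKM in SMCs. SMC replicate 1 lay below pericyte replicate 4, so the groups overlapped. Kdr differed by 2.53 on the log2 scale, with a wide interval, from 0.74 to 4.31 (limma q = 0.0538, exact permutation p = 0.0571). Without pericyte replicate 4 the q was 0.0397, and without SMC replicate 1 it was 0.0271.

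Tek encodes Tie2, the receptor of the angiopoietins (chromosome 4, 94405980 to 94541667, plus strand, 23 exon blocks). Tek had 9.15, 2.45, 3.27 and 6.90 FPKM in pericytes and 27.8, 46.2, 42.1 and 70.9 FPKM in SMCs. It was the only one of the 10 genes in which SMC replicates 3 and 4 were not both above replicates 1 and 2, and the mean of the former was 1.53 times that of the latter. For Tek the log2 difference was 2.95 (SE 0.42, 95% interval 1.97 to 3.93, limma q = 0.00244).

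Tie1 encodes the partner receptor of Tie2 and lies on the same chromosome (118143796 to 118162666, minus strand, 22 exon blocks). Tie1 had 6.66, 3.35, 7.73 and 13.1 FPKM in pericytes and 13.7, 24.9, 114.4 and 127.9 FPKM in SMCs. The groups were separated by a ratio of 1.05, and SMC replicates 3 and 4 together were at 6.28 times replicates 1 and 2, the highest such ratio of the 10 genes. The log2 difference was 2.61 (95% interval 0.77 to 4.44, limma q = 0.0531). Without SMC replicate 1 the q was 0.0213.

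Eng encodes endoglin, a co-receptor for transforming growth factor beta and bone morphogenetic protein ligands (chromosome 2, 32502115 to 32538189, plus strand, 15 exon blocks). Of its 3870 exonic bases, 185 are shared with Ak1 on the same strand or Fpgs on the opposite strand, and whether reads were counted by strand was not given, so some reads may be shared with these neighbours. Eng had 13.6, 5.57, 13.5 and 21.8 FPKM in pericytes and 31.6, 38.2, 148.1 and 193.8 FPKM in SMCs. The groups did not overlap, and the SMC libraries fell into a lower and a higher pair. The log2 difference was 2.55 (SE 0.69, 95% interval 0.93 to 4.17, limma q = 0.0369). The call was lost when any of pericyte replicates 1, 2 or 3 or SMC replicates 3 or 4 was left out, with q from 0.0738 to 0.0926.

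Of the secreted and surface glycoproteins, Vwf encodes von Willebrand factor, the clotting protein stored in endothelial granules and platelets (chromosome 6, 125496792 to 125636697, plus strand, 56 exon blocks). Vwf had 4.16, 8.80, 4.97 and 9.64 FPKM in pericytes and 31.8, 30.9, 65.4 and 81.4 FPKM in SMCs. The groups did not overlap, and SMC replicates 1 and 2 were nearly alike. The log2 difference was 2.70 (SE 0.40, 95% interval 1.76 to 3.64, limma q = 0.00294).

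Emcn encodes endomucin, a sialomucin of capillary and venous endothelium (chromosome 3, 137004031 to 137095149, plus strand, 12 exon blocks). Emcn had 7.21, 13.7, 4.995 and 12.2 FPKM in pericytes and 58.5, 76.3, 113.6 and 137.3 FPKM in SMCs. It had the widest gap and the highest fold change of the 10 genes, with the lowest SMC library at 4.25 times the highest pericyte library. Emcn differed by 3.22 on the log2 scale (SE 0.38, 95% interval 2.34 to 4.10, limma q = 0.00103).

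**Figure D2:**
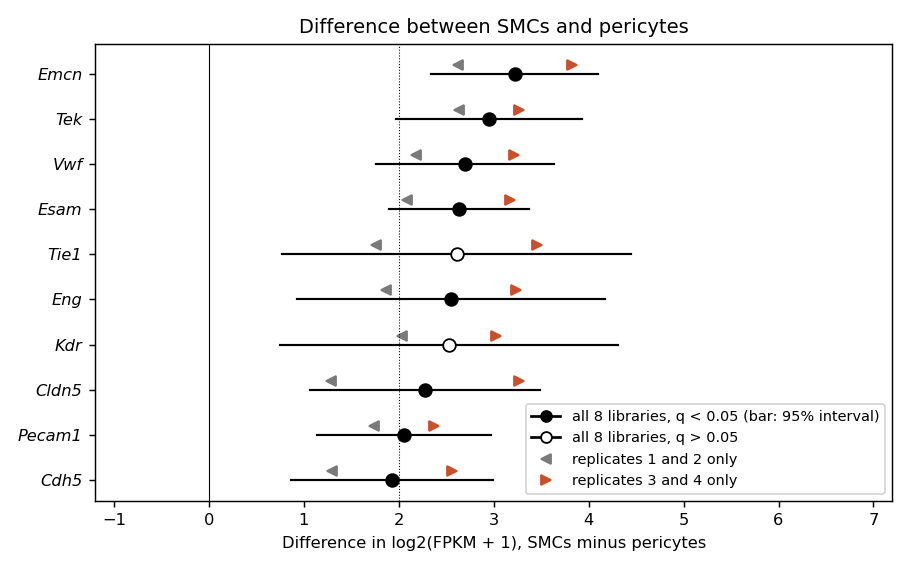
Log2 fold change of FPKM + 1, SMCs over pericytes, of each endothelial identity gene with its 95% interval from limma, and the differences within replicates 1 and 2 and within replicates 3 and 4. The values run from 1.93 (Cdh5) to 3.22 (Emcn), and the intervals of Kdr and Tie1 are among the widest.

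FPKM is a level per length, so the genes could be ranked against each other. In SMCs the order of the mean FPKM was Esam (280.9), Pecam1 (197), Cldn5 (104.0), Eng (102.9), Emcn (96.4), Tie1 (70.2), Vwf (52.4), Tek (46.8), Kdr (45.8) and Cdh5 (11.4). In pericytes it was Pecam1 (45.5), Esam (45.01), Cldn5 (18.6), Eng (13.6), Emcn (9.55), Tie1 (7.70), Vwf (6.89), Kdr (6.23), Tek (5.44) and Cdh5 (2.02). The orders thus differed only by the exchange of Esam with Pecam1 and of Tek with Kdr. The ranges of all neighbours in both orders overlapped. Within libraries, Esam was above Pecam1 and Kdr was above Cdh5 in 4 of 4 SMC libraries, whereas Tie1 was above Vwf in 2 of 4 and Tek above Kdr in 2 of 4. Among pericyte libraries, Pecam1 was above Esam in 2 of 4 and Kdr above Tek in 2 of 4. Cdh5 was below the next gene in 4 of 4 libraries of both groups.

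The 10 genes varied together among the SMC libraries. Among the pericyte libraries, replicate 2 was the lowest for 5 genes and the highest for 2 (Emcn and Cldn5). Their summed level was 167, 141, 120.3 and 214 FPKM in pericyte replicates 1 to 4 and 523, 694, 1265 and 1549 FPKM in SMC replicates 1 to 4. SMC replicate 4 was the highest library in 9 genes and SMC replicate 1 the lowest in 9. SMC replicates 3 and 4 were both above replicates 1 and 2 in 9 of the 10 genes, as in 31.2% of the 13612 genes with a mean of 1 FPKM or more. The mean of SMC replicates 3 and 4 was 1.53 to 6.28 times that of replicates 1 and 2, with a median of 2.66 over the 10 genes and 0.965 over those 13612. Pericytes showed no such pair. Their replicates 3 and 4 were both above 1 and 2 in 1 of the 10 genes (Tie1) and in 24.5% of those 13612, with a median fold of 1.14 over the 10 genes and 0.945 over the 13612. Pericyte replicate 4 was the highest in 6 genes, and pericyte replicate 3 was the lowest in 4.

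The difference between SMCs and pericytes was present in both pairs of libraries and was larger in replicates 3 and 4. Within replicates 1 and 2 the log2 difference was 1.28 to 2.64, with a median of 1.95. Within replicates 3 and 4 it was 2.37 to 3.82, with a median of 3.22, and it was the larger in 10 of 10 genes, as in 57.3% of genes tested. Both SMC libraries lay above both pericyte libraries in 10 of 10 genes within replicates 1 and 2, as in 23.3% of genes tested, and in 10 of 10 within replicates 3 and 4, as in 26.1%. These are differences of group means with no test.

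Ranked by how closely their deviations from the group means followed those of the 10 genes' mean over the 8 libraries, the nearest other genes were Ednrb (r = 0.995), Arhgef15 (r = 0.991), Sele (r = 0.987), Stom (r = 0.986) and Afap1l1 (r = 0.984), followed by Ccdc85a, Gbp2, Sphk2, Creld1 and Csf1 (r from 0.978 to 0.982). These were the highest Pearson correlations of 9269 genes with a mean of 5 FPKM or more, whose median r was -0.0816. Each of the 10 genes followed the mean of the other 9 with an r from 0.602 (Tek) to 0.939 (Cdh5). All points share the same 8 libraries and their sorts, so the values are a description with no test.

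**Figure D3:**
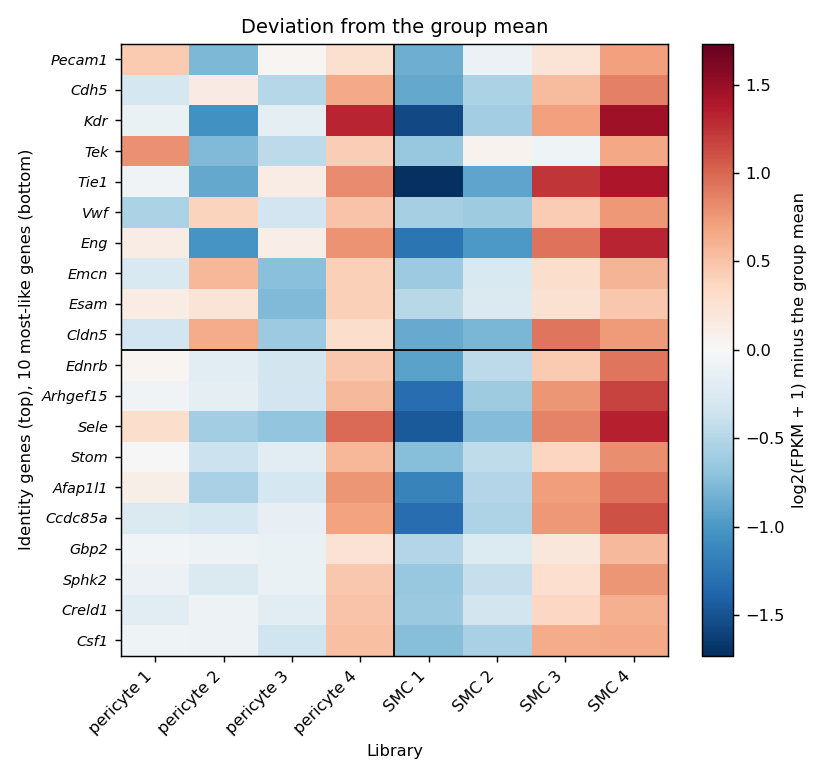
Log2(FPKM + 1) minus the group mean in each library (columns) for the 10 endothelial identity genes and the 10 genes that followed them most closely (rows). Colours run from below to above the group mean, with SMC replicates 1 and 2 below and SMC replicates 3 and 4 above it in all genes shown but Tek, which had 0.06 in SMC replicate 2 and -0.07 in SMC replicate 3.

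Most other surface and vessel-bed genes of endothelial cells were higher in SMCs too. Of 36 such genes, 28 were higher in SMCs by limma and 8 did not pass, with a median log2 fold change of 2.53. Higher in pericytes were 0, also at an unadjusted p below 0.05. Leaving out SMC replicates 3 and 4 left 22 genes, and leaving out SMC replicates 1 and 2 gave 31. Darc, a chemokine-binding receptor of venules, had 5.87 FPKM in pericytes and 227.5 FPKM in SMCs (log2 difference 5.03, q = 1.2e-04). Sele and Selp encode the selectins that catch leukocytes on activated endothelium. Sele rose from 0.914 to 51.0 FPKM (log2 difference 4.52, q = 0.00366). Selp had 17.5, 24.1, 278.3 and 305.0 FPKM in SMC replicates 1 to 4 against a pericyte mean of 3.15 FPKM (log2 difference 4.45, q = 0.0232). Plvap, the protein of fenestral and caveolar diaphragms, had 10.2 and 175 FPKM (log2 difference 4.202, q = 0.00644). The summed level of the 36 genes was 847 to 1572 FPKM in pericytes and 2510 to 5363 FPKM in SMCs. For this list and those below, the share over all genes tested at q below 0.05 was 11.2% higher in SMCs and 10.6% higher in pericytes. No such share is given for the counts at an unadjusted p below 0.05.

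Junction proteins that sit with Cdh5, Esam and Cldn5 followed. Of 19 measured, 15 were higher in SMCs, 0 were higher in pericytes (also at an unadjusted p below 0.05) and 4 did not pass, with a median log2 fold change of 1.58. Gja1, a connexin, had 20.1 FPKM in pericytes and 235 FPKM in SMCs (log2 difference 3.47, limma q = 1.5e-04). Jam2 and F11r, junctional adhesion molecules, had log2 differences of 3.28 (q = 4.2e-04) and 2.71 (q = 3.5e-04). Gja5, a connexin of arterial endothelium, had 1.97 and 20.4 FPKM (log2 difference 2.82, q = 0.00106). Without SMC replicate 3, 10 of the 19 passed, and without SMC replicates 3 and 4 also 10. None of these genes is used by endothelial cells alone.

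Ligands and co-receptors of the listed receptors were split. Of 21 genes, 11 were higher in SMCs and 10 did not pass, with 0 higher in pericytes by limma (1 at an unadjusted p below 0.05) and a median log2 fold change of 1.501. Angptl1, an angiopoietin-like protein, had 13.9 FPKM in pericytes and 135 FPKM in SMCs (log2 difference 3.31, q = 0.00391), and SMC replicates 3 and 4 were at 0.451 times replicates 1 and 2, opposite to the identity genes. Nrp1, a VEGF co-receptor, had 10.1 and 62.1 FPKM (log2 difference 2.55, q = 0.00117). Vegfc and Pgf, both of the VEGF family, had log2 differences of 2.38 (q = 6.2e-04) and 1.96 (q = 0.00144). Vegfa, the main ligand of Kdr, had 11.6 FPKM in pericytes and 13.1 FPKM in SMCs (q = 0.696). Vegfa is named here for its role, after its values were seen. The endoglin ligand gene Gdf2 was listed at 0 in all pericyte libraries and reached at most 0.029 FPKM in SMCs, and Bmp10 was listed at 0 in all SMC libraries.

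Transcription factors of the endothelial lineage were split. Of 19, 7 were higher in SMCs, 4 were higher in pericytes and 8 did not pass, with a median log2 fold change of 0.81. The SoxF factors were higher in SMCs, with log2 differences of 2.90 for Sox17 (q = 0.0146), 2.80 for Sox7 (q = 0.0265) and 2.23 for Sox18 (q = 0.0197). Nr2f2, a factor of venous identity, had 3.04 FPKM in pericytes and 15.2 FPKM in SMCs (log2 difference 1.92, q = 0.00402). Higher in pericytes were Ets1 (292 and 51.1 FPKM, log2 difference -2.60, q = 0.00784), Fli1 (45.6 and 21.0 FPKM, log2 difference -1.16, q = 0.0454), Hhex (log2 difference -0.89, q = 0.0405) and Lyl1 (log2 difference -0.59, q = 0.0145), which blood cells use too. Etv2 was listed at 0 in all SMC libraries. Without SMC replicates 3 and 4, or without pericyte replicate 1, 3 factors were higher in SMCs. The count higher in pericytes fell from 4 to 2 when any of pericyte replicates 3 or 4 or SMC replicates 1, 2 or 3 was left out, with TPM scaling, with a pseudocount of 0.1 or without a filter, and to 1 without SMC replicates 1 and 2.

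**Figure D4:**
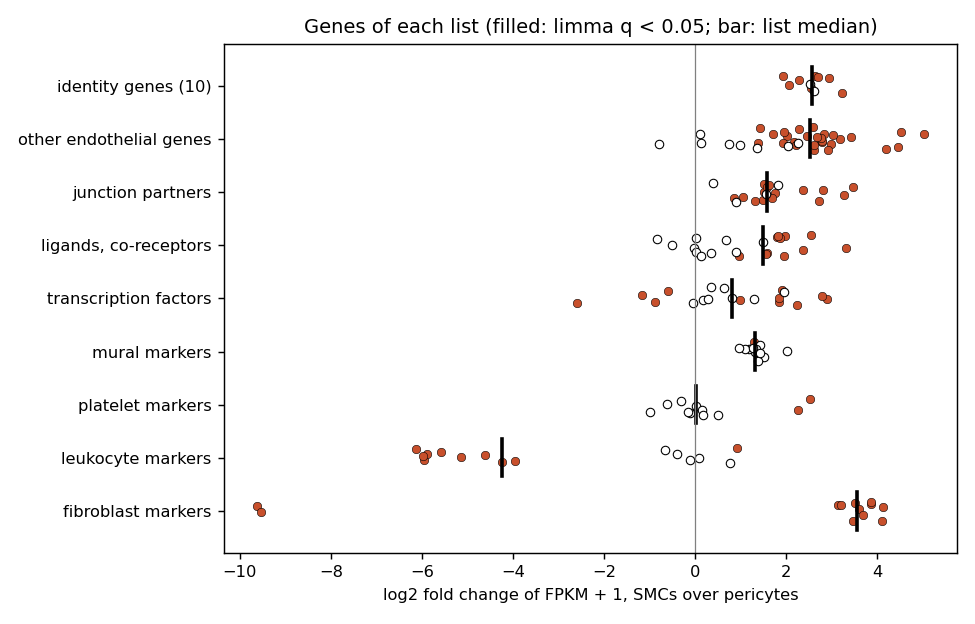
Log2 fold change of FPKM + 1, SMCs over pericytes, of each gene in the lists compared, 1 point per gene, filled where limma q was below 0.05 and with a bar at the list median. The endothelial identity genes (median 2.58) and the surface and vessel-bed genes (other endothelial genes, median 2.53) lie to the SMC side, and leukocyte markers (median -4.24) lie to the pericyte side.

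Leukocyte and fibroblast markers differed between the groups as well. Of 15 leukocyte markers, 9 were higher in pericytes and 1 (Emr1, q = 0.0437) in SMCs. The Emr1 call was lost when any library but pericyte replicate 4 was left out, with a pseudocount of 0.1 and without a filter. Their summed level was 6696 to 14324 FPKM in pericytes and 1777 to 3174 FPKM in SMCs, and Ptprc, which encodes CD45, had 175 and 8.16 FPKM. Of 12 fibroblast markers, 10 were higher in SMCs, with sums of 1697 to 2697 and 4906 to 7092 FPKM, while Dcn and Gsn, the other 2, were higher in pericytes and listed at 0 in every SMC library. Of 11 platelet and megakaryocyte markers measured, 2 (Itga2b and Pf4) were higher in SMCs, not far from the 11.2% of all genes tested. The platelet count fell to 1 when any of pericyte replicates 1, 3 or 4 or SMC replicates 1 or 2 was left out. It was also 1 without SMC replicates 1 and 2 together and without a filter. The summed level of the platelet list was 15.5 to 41.4 FPKM in pericytes and 51.1 to 133 FPKM in SMCs. Pf4, a platelet chemokine, reached 112.7 FPKM and Itga2b, a platelet integrin, 16.7 FPKM, both in SMC replicate 1. The glycoprotein genes Gp1ba, Gp1bb, Gp5 and Gp9, named after their values were seen, were below 1 FPKM in every library, and Gp6 was listed at 0. Of 10 skeletal muscle and erythroid markers, 0 passed in either direction by limma (1 higher in SMCs at an unadjusted p below 0.05). The part of these other cells in the identity genes' difference was not tested.

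The mural markers, which include Pdgfrb and Tagln, the genes behind the sort, followed the identity genes among the SMC libraries. Of 12 mural markers, 1 (Rgs5) was higher in SMCs by limma, against 11.2% of genes tested. An unadjusted limma p below 0.05 was reached by 7, with no share over all genes given at that threshold. The count by q was 4 without SMC replicates 1 and 2. The count was 0 without SMC replicates 3 and 4, and also without pericyte replicate 1, SMC replicate 3 or SMC replicate 4 alone. It was 2 without SMC replicate 1 and 7 with a filter at 1 FPKM. With replicates 1 and 2 against 3 and 4 as a covariate it was 5, with TPM scaling 3 and without a filter 0. The all-gene background moved too. Of all genes tested, 3040 of 13349 were higher in SMCs with that filter and 3929 of 27414 with that covariate. With TPM scaling it was 3734 of 27414, without a filter 2405 of 37979, and without SMC replicates 3 and 4 2271 of 27124. Pdgfrb had 9.70 FPKM in pericytes and 47.4 FPKM in SMCs (q = 0.0973), Acta2 had 764 and 1951 FPKM (q = 0.0979), and Tagln, which encodes SM22α, had 343 and 896 FPKM (q = 0.110). The mural sums overlapped between groups, at 614 to 1919 FPKM in pericytes and 1826 to 5819 FPKM in SMCs. SMC replicates 3 and 4 were above replicates 1 and 2 in 12 of 12 mural markers, with a median fold of 3.04, whereas the fibroblast markers had a median fold of 0.982. Averaged as log2(FPKM + 1), the identity genes minus the mural markers gave -0.36, -0.80, -0.998 and -1.14 in pericyte replicates 1 to 4 and 0.45, 0.63, 0.38 and 0.03 in SMC replicates 1 to 4. On this average of logs the identity genes were below the mural markers in all pericyte libraries and above them in all SMC libraries, by little in SMC replicate 4. In summed FPKM, where Acta2 and Tagln weigh most, the mural markers were above the identity genes in all 8 libraries, with 1826, 2100.5, 3493 and 5819 FPKM in SMC replicates 1 to 4.

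**Figure D5:**
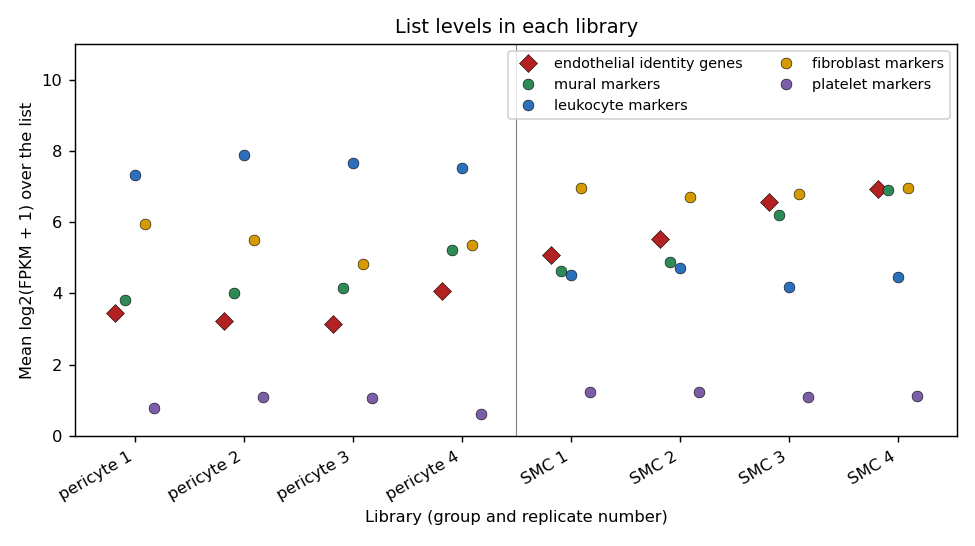
Mean log2(FPKM + 1) of the endothelial identity genes (diamonds) and of mural, leukocyte, fibroblast and platelet markers (circles) in each of the 8 libraries. The identity genes run from 3.15 to 4.07 in pericytes and from 5.07 to 6.92 in SMCs, and the mural markers are also highest in SMC replicates 3 and 4.

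The libraries summed to 656405 to 1190435 FPKM, with pericyte replicate 2 the highest, and 12713 to 13194 genes reached 1 FPKM in each. FPKM carries no read total, and the ratios of the smallest FPKM steps placed the relative depth of the libraries between 0.867 and 1.07. Scaling each library to a common sum, as TPM does, moved the median log2 fold change of genes with a mean of 1 FPKM or more from -0.05 to 0.16, and the share of all calls that were higher in SMCs from 51.2% to 63.8%. Under that scaling the 10 genes had log2 differences of 2.22 to 3.49, and 9 of them passed. Of 12 genes used by every cell, 10 were measured, and 4 of these were higher in pericytes as deposited. That count was 5 with TPM scaling and 2 without a filter. It was 2 without SMC replicate 2 or 4, 1 without SMC replicate 3, and 0 without SMC replicates 3 and 4 together. The p-values measure the spread among these 4 libraries of each group, which were pooled from several sorts.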

How the data were processed

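The authors sequenced 4 pericyte and 4 SMC libraries (SMART-Seq v4, Nextera XT, paired reads of 150 bases), aligned them to NCBI Build 37 with Bowtie2 and TopHat and an Ensembl annotation, and deposited FPKM per gene. The program that computed the FPKM values and the use of strand are not given in the sources used here. Of 37979 listed genes, 27414 were above 0 in at least 1 library and were tested. log2(FPKM + 1) was compared between groups with limma 3.58.1 in R 4.3.3, SMC minus pericyte and without a block, with Benjamini-Hochberg adjustment over all tested genes. A fold change on this scale understates that of low genes. The script was tested on simulated data. The 10 genes and the gene lists were chosen with earlier results of these data known, so their counts are descriptions. The text names all 10 genes and, in each list, the 4 largest changes in each direction at q below 0.05, genes listed at 0 in a whole group, the 10 most similar genes, and Pdgfrb, Tagln, Acta2 and Ptprc. Of the list genes, 1 (Cd99) was not matched, and Rgcc was matched by an older symbol. Gene positions were taken from GENCODE mouse version 1 and promoter sequences from RefSeq. Alternatives changed the pseudocount (0.1), filter, scaling, intensity trend, block and libraries. Leaving out SMC replicates 3 and 4, or 1 and 2, was added after the data were seen. FPKM gives no read depth per library, so no counting error is given.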

Additional observations from a re-analysis of the deposited data

Results flagged for a closer look

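None of the 10 endothelial identity genes had a library far from the others of its group by Dixon's test. Of 123 groups of 4 libraries tested, 6 did, and chance alone gives about 1 in 20. Ccdc85a, Gbp2 and Creld1 were picked because they followed the mean of the identity genes most closely. That mean had its highest pericyte deviation (0.59) in replicate 4, so the flags of these genes are not independent. Each had a high value in pericyte replicate 4. Ccdc85a had 4.13 FPKM there against 1.56 to 1.85 FPKM in the other pericyte libraries, Gbp2 had 23.2 against 17.8 to 18.6 FPKM, and Creld1 had 9.92 against 5.74 to 6.28 FPKM. Etv2 had 0.105 FPKM and Bmp10 had 0.0391 FPKM in pericyte replicate 1, and both were listed at 0 in the other pericyte libraries. Rplp0, a ribosomal protein gene, had 4516 FPKM in pericyte replicate 2, the library with the highest FPKM sum, against 1893 to 2108 FPKM in the others.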

How the results depend on the processing

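Over 190 settings of the 10 endothelial identity genes with a test, none turned the direction, 154 passed, and Tek, Vwf, Emcn and Esam passed in all 19 settings each. The number of genes higher in SMCs was 8 as reported, 5 to 10 with each library left out in turn (5 without pericyte replicate 3), and 4 without SMC replicates 3 and 4. The number past the fold rule was 7 as reported, 4 to 10 with each library left out (4 without SMC replicate 3), and 4 without SMC replicates 3 and 4. Tested without any filter, Cdh5 (q = 0.0502) and Eng (q = 0.0811) did not pass. Kdr and Tie1 passed with a filter at 1 FPKM (q = 0.0117 and 0.0114) and with a pseudocount of 0.1 (q = 0.0370 and 0.0357). Over all genes tested, 3040 of 13349 were higher in SMCs with that filter. With that pseudocount it was 3034 of 27414, and without any filter 2405 of 37979. Of 380 list counts, 58 moved by over 1.5 times, among them the mural markers higher in SMCs (7 with the filter, 5 with a replicate block). For all of these the cause was not tested. The replicate numbers are not stated to pair libraries. Deviations of same-numbered libraries correlated at 0.0794 to 0.474 across genes, and 5 of 8 libraries correlated best with their own number. With a replicate block, 9 of the 10 genes were higher in SMCs, with Kdr (q = 0.0219) and Tie1 (q = 0.0317) gained and Cldn5 (q = 0.0516) lost, and 3175 genes were higher in SMCs and 2978 in pericytes, against 3060 and 2917 without it. FPKM without read counts leaves the precision of low genes such as Cdh5 unknown.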

Other observations

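Genes of lymphatic and sinusoidal endothelium, singled out after their values were seen, were not all called higher in SMCs. Lyve1, a hyaluronan receptor of lymphatic vessels and some macrophages, had 3.63 FPKM in pericytes and 11.2 FPKM in SMCs (log2 difference 1.44, limma q = 0.00666). Prox1, the lymphatic transcription factor, had 1.97 and 4.23 FPKM (log2 difference 0.81, q = 0.104). Flt4, the VEGF receptor of lymphatic endothelium, had 0.724 and 4.44 FPKM (log2 difference 1.36, q = 0.136). Its SMC replicates 1 to 4 had 0.943, 1.43, 7.43 and 7.96 FPKM. Replicates 3 and 4 were at 6.48 times replicates 1 and 2, a split that most identity genes also had. Stab2, a scavenger receptor of sinusoidal endothelium, had 4.78 and 4.07 FPKM (log2 difference 0.13, q = 0.909). Its pericyte mean rested largely on replicate 2 (10.9 FPKM, against 0.820, 1.82 and 5.56 in the others), which weighs less on the log scale. Stab1, a relative of Stab2, had 4.04 and 12.3 FPKM (log2 difference 1.38, q = 0.00312). Mmrn1, a multimerin of lymphatic endothelium and platelets, had 7.04 and 13.6 FPKM (log2 difference 0.75, q = 0.3496).

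A few surface genes of the endothelial list did not pass the test or lay to the pericyte side, also chosen after their values were seen. S1pr1, a sphingolipid receptor of endothelial cells and lymphocytes, had 124 FPKM in pericytes and 71.6 FPKM in SMCs (log2 difference -0.80, q = 0.219). Icam2, an adhesion molecule of the same cells, had 62.2 and 118 FPKM (log2 difference 0.98, q = 0.123). Nos3, the endothelial nitric oxide synthase, had 3.10 and 25.4 FPKM (log2 difference 2.26, q = 0.0549), while Flt1, VEGF receptor 1, had 5.21 and 53.3 FPKM and passed (log2 difference 3.03, q = 0.0138).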
